A study of Homo sapiens with 6 samples.

Results

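The cytosolic ribosomal protein genes encode the proteins of the ribosome that translates nuclear mRNAs. They were taken by gene name, as the protein-coding genes with the standard large subunit (RPL) or small subunit (RPS) names and the 4 genes RPLP0, RPLP1, RPLP2 and RPSA. The rule found 77 of 33706 genes in the deposited table, 46 of the large subunit and 31 of the small subunit. All 77 had at least 1 FPKM (the authors' fragment level, corrected for transcript length and for library depth) and all 77 passed the filter on low counts. No Y-linked gene was used. Of the 77 genes 38 overlap another gene on the same strand, mostly small nucleolar RNA genes in their introns. RPS10, RPL17 and RPL36A also overlap readthrough genes, so their counts are less certain.

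ES2 cells, a human line from an ovarian cancer, were cultured for 7 days and gave 6 RNA libraries, 1 in each group. Cultures received R, T and R together (TR), G and R together (GR), T alone or G alone, and Control received no drug. The series is about T-oligos, short DNAs that mimic the overhang at the ends of telomeres, and about RHPS4, a small molecule that binds G-quadruplexes, which are 4-stranded structures of guanine-rich nucleic acid. G is described in the labels as G4, the meaning of T and R is not given there, and TR and GR are read as combinations. T and G are called oligos below, which is a reading that the labels do not state. All 6 titles give ES2, while the source names of R, TR, GR and G give SKOV3, another ovarian cancer line. The libraries are of 1 line with 1 culture each, no group has a replicate, and the labels do not say that cultures were set up separately. R was therefore compared in 3 pairs that share no library (R with Control, TR with T, GR with G), T in 2 pairs (T with Control, TR with R) and G in 2 pairs (G with Control, GR with R). The pairs for different agents share libraries: Control serves 3 of the 7 pairs and R serves 3. By the source names, R with Control, TR with T and G with Control also differ in line. If those names held, agent and line could not be told apart in these pairs. The other pairs do not differ in line by those names.

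Each ribosome carries 1 copy of most of its proteins, and cells keep the mRNAs of these genes at high levels. Many of these mRNAs begin with a C followed by a run of pyrimidines, the terminal oligopyrimidine (TOP) motif, through which the kinase mTOR and the RNA-binding protein LARP1 control their translation and stability. The genes of translation elongation factors share this start. Growing tumour cells spend much of their transcription on ribosome production, and damage to that process activates p53 through free RPL5 and RPL11.

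Library totals ran from 73213048 to 83976498 counts. The epithelial label was met in part: KRT18 lay between 62.9 and 249 FPKM, while EPCAM and CDH1 did not exceed 0.0563 FPKM, and the mesenchymal gene VIM was high in all 6 libraries. Of the leukocyte and endothelial markers, PTPRC did not exceed 0.00665 FPKM and VWF 0.0559 FPKM, while CD68 lay between 19.0 and 63.5 FPKM and CDH5 between 5.75 and 19.2 FPKM. ERBB2, which is amplified in SKOV3, lay between 0.146 and 0.721 FPKM in all 6 libraries. Mitochondrially encoded genes took 0.351%, 0.474% and 0.893% of counts in R, TR and GR, against 5.44%, 6.17% and 6.98% in T, G and Control. This enters every share and FPKM value. In bulk RNA, fewer copies per cell and a smaller share of expressing cells cannot be told apart.

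The family differs from other genes in the sequence at the start of transcription. RefSeq promoter sequences on GRCh38.p14 were found for 62 of the 77 genes, each with 250 bases before and 50 bases from the annotated start. In 46 of the 62, or 74.2%, at least 1 annotated start was a C followed by at least 4 bases that are each C or T, against 5.14% of 27305 genes with a promoter sequence. The large subunit had 28 of 38 such genes and the small subunit 18 of 24. The windows below run from 15 bases before the start to 15 bases from it, 5′ to 3′ on the coding strand, and capitals mark the C at the start with its pyrimidine run. They are examples of both kinds of start and were not chosen to represent the family. RPLP1, RPLP2, RPL12, RPL35, RPSA, RPS6 and EEF2 have the TOP start. RPS15, RPS26, RPL3 and RPL10A, from both ends of the response to R, lack it at the annotated start. RPL35 and RPLP1, which have it, were also among the highest of the large subunit for R. The exit tunnel genes RPL4, RPL17 and RPL19, not shown, lack it.

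RPLP1 (chr15:69452803-69452832, plus strand): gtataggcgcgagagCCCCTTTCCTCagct
RPLP2 (chr11:809952-809981, plus strand): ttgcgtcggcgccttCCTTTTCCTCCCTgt
RPL12 (chr9:127451392-127451421, minus strand): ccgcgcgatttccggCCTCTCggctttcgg
RPL35 (chr9:124861943-124861972, minus strand): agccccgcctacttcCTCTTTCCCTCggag
RPSA (chr3:39406705-39406734, plus strand): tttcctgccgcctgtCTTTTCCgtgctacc
RPS6 (chr9:19380222-19380251, minus strand): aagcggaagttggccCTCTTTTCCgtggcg
EEF2 (chr19:3985449-3985478, minus strand): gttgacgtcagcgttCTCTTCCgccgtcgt
RPS15 (chr19:1438381-1438410, plus strand): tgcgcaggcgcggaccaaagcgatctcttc
RPS26 (chr12:56041903-56041932, plus strand): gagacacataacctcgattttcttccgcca
RPL3 (chr22:39319609-39319638, minus strand): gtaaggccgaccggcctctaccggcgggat
RPL10A (chr6:35468386-35468415, plus strand): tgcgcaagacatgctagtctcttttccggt

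RPS15, RPS26 and RPL10A hold pyrimidine-rich stretches a few bases downstream of the annotated start, and a start mapped a few bases away would change their class. RPL19 has such a stretch across an annotated start and RPL17 a few bases before it. RPL3 has a run of 4 bases counting its C, just short of the rule. The class of these genes is therefore uncertain too. A motif of 4 runs of GGG separated by 1 to 7 bases, on either strand, the simplest text pattern for a possible G-quadruplex, was found in the promoter windows of 6 of the 62 genes (9.68%), against 27.9% of all genes. Those 6 genes were RPL18, RPLP2, RPS16, RPS19, RPS26 and RPS28. A match describes these letters and says nothing of binding.

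The family as a whole took the largest share of counts where R was present without G. Its 77 genes held 9.11% of all counts in R, 8.74% in TR and 6.50% in GR, against 8.10% in T, 6.11% in G and 6.86% in Control. The 95% Wilson interval for R ran from 9.10 to 9.12%, with similar widths for the others, and covers counting error only. The mean share was 8.12 ± 1.41% with R and 7.02 ± 1.003% without R (SD, n = 3 libraries each), so the difference was within the spread of the libraries, and the groups overlapped: GR lay below T and Control. That spread includes the difference between oligos. Matched by oligo, the share was higher in R than in Control, in TR than in T and in GR than in G, which was not tested. Counted without mitochondrial genes, the shares were 9.14, 8.78 and 6.56% in R, TR and GR, against 8.56, 6.51 and 7.37% in T, G and Control. The direction within each matched pair stayed, with GR and G close together.

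Both subunits contributed. The large subunit held 5.53, 5.32 and 4.01% of counts in R, TR and GR, against 5.12, 3.82 and 4.296% in T, G and Control. The small subunit held 3.58, 3.42 and 2.49% in R, TR and GR, against 2.98, 2.29 and 2.56% in T, G and Control. The ratio of large to small subunit counts was 1.54, 1.56 and 1.61 in R, TR and GR, against 1.72, 1.67 and 1.68 in T, G and Control. The 3 libraries with R thus had lower ratios than the 3 without R and the groups did not overlap. This ratio needs no scaling between libraries, as both sums come from the same library, but genes with many counts weigh most in it. It was not compared with other gene sets. In the fit described below, the median log2 fold change for R was 0.42 for the large and 0.47 for the small subunit. With a trend on GC content and length removed, the order turned, with 0.37 and 0.35.

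The order of the libraries was shared by much of the family. The highest FPKM lay in R for 49 of the 77 genes, where 10.8% of the 13259 genes with at least 1 FPKM in a library had theirs. It lay in TR for 19 genes (13.3% of all genes) and in T for the other 9 (24.6% of all genes), which were RPL3, RPL5, RPL6, RPL10A, RPL12, RPL17, RPL23, RPL26 and RPL37. All 9 belong to the large subunit. The lowest FPKM lay in G for 45 genes (11.4% of all genes), in Control for 17 (12.5%) and in GR for 13 (6.16%), while RPL6 was lowest in TR (21.1%) and RPS26 in T (17.9%). No member was lowest in R, where 30.9% of all genes were. No member was highest in GR, G or Control, where 18.3%, 21.6% and 11.3% of all genes were.

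**Figure D1:**
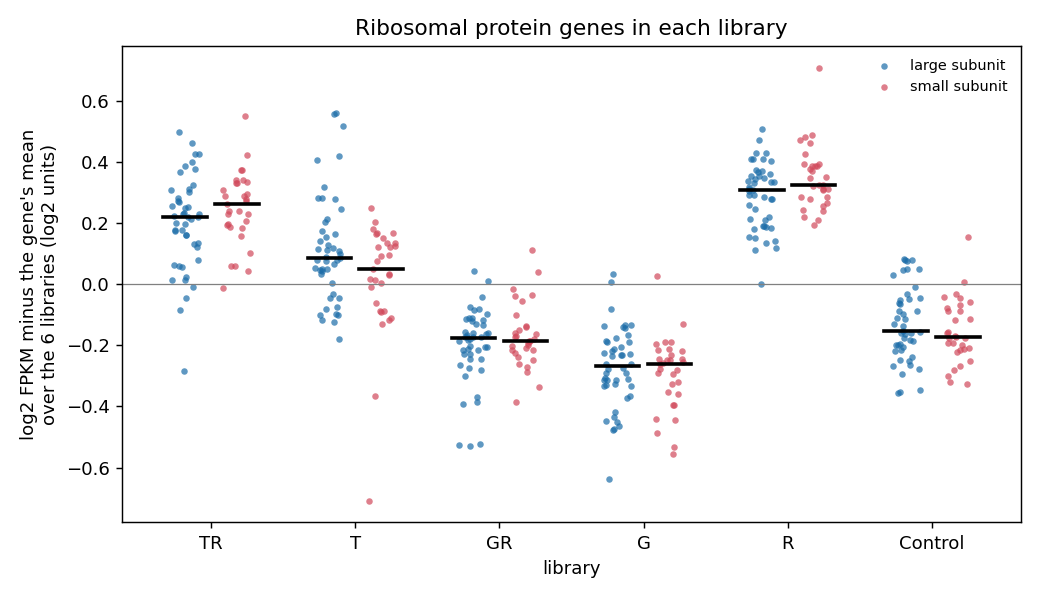
Level of each of the 77 ribosomal protein genes in each of the 6 libraries, as log2 FPKM minus the gene's own mean over the libraries (vertical axis, log2 units), with the large subunit in blue and the small subunit in red; black bars are medians. Both subunits lie above their mean in R and TR and below it in GR, G and Control, and the low point in T is RPS26.

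The comparison of R with its absence asks what differs with R whichever oligo is present. Ribosomal protein genes were higher in R than in Control almost without exception, and the difference was smaller in the other 2 backgrounds. The median log2 ratio of FPKM + 1 was 0.47 in R over Control, 0.15 in TR over T and 0.09 in GR over G, where all 13259 genes had medians of -0.13, -0.17 and -0.01. Relative to all genes these are 0.60, 0.32 and 0.11. The mean of the 3 medians was 0.24 ± 0.20 (SD, n = 3 pairs), positive in 3 of 3 pairs. With FPKM rescaled without mitochondrial genes the medians became 0.30, -0.08 and -0.04, so that the direction in TR over T and GR over G flipped, while the mean relative to all genes was 0.36, against 0.34 as deposited.

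By FPKM, 76 of the 77 genes were higher in R than in Control (39.7% of all genes), RPL6 being the exception. In TR 58 were higher than in T (40.8%), and in GR 59 were higher than in G (48.5%). At least 1.5-fold higher were 18 genes in R over Control (8.58% of all genes), 3 in TR over T (14.9%) and 1 in GR over G (7.26%), so that in TR over T and GR over G the family held fewer such genes than its size would give at the rate of all genes. Higher in all 3 pairs were 53 genes, where 22.4% of all genes were. For 8 genes every library with R lay above every library without it, a pattern that 13.5% of all genes had. That share is close to the background. Among them were RPL23A, RPL41, RPS15, RPS19 and RPS29. With TMM-scaled counts, 77, 69 and 63 genes were higher in R over Control, TR over T and GR over G. The shares of all genes were then 51.2%, 53.8% and 53.5%.

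**Figure D2:**
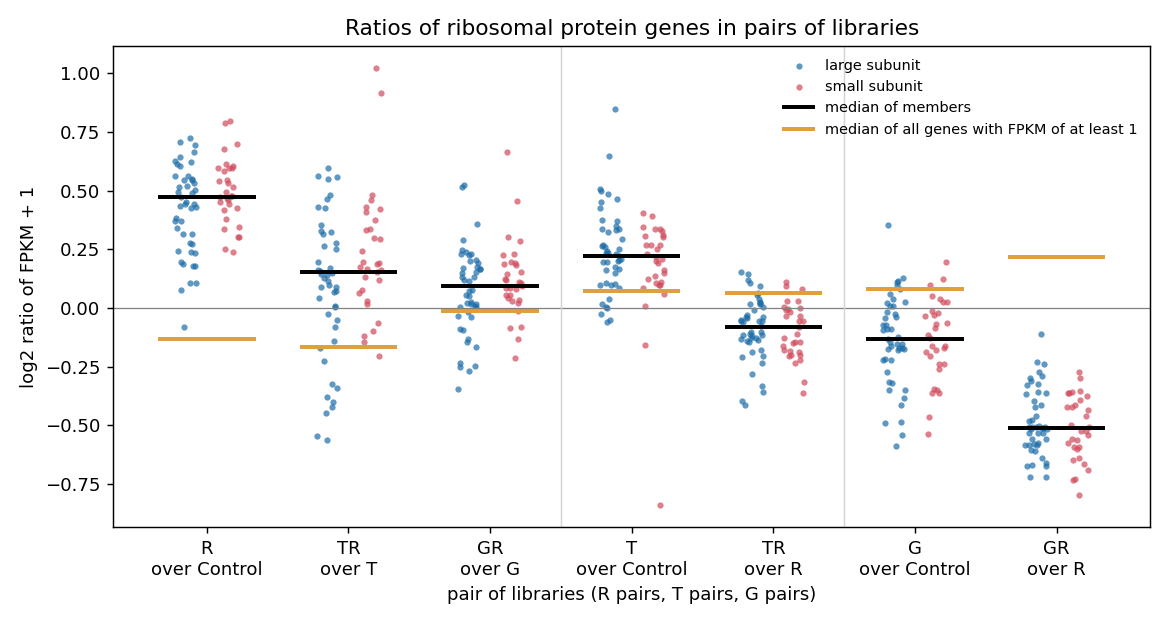
Log2 ratio of FPKM + 1 of each ribosomal protein gene (large subunit blue, small subunit red) in the 7 pairs of libraries, with the median of the 77 genes (black) and of the 13259 genes with at least 1 FPKM (orange). The black bar lies above the orange bar in the 3 R pairs and in T over Control, and below it in TR over R and both G pairs, most in GR over R (-0.51, against 0.22 for all genes).

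Across the 3 backgrounds no ribosomal protein gene passed the test for R. The fit was an additive edgeR model of R, T and G over 20922 genes with 2 residual degrees of freedom. It called 0 of the 77 at an adjusted p under 0.05, where 2.5% of all genes were called. At an unadjusted p under 0.05 there were 31, all higher, where 27.2% of all genes lay under it. That count rested on single libraries: it was 6 without Control and 6 without R, below the 21% and 21.6% of all genes. It was 15 without TR and 17 without T, where 13.6% and 13.8% of all genes had an unadjusted p under 0.05. The fitted log2 fold change was positive for 75 of 77, with a median of 0.43 (large subunit 0.42, small subunit 0.47) beside -0.06 for all genes. All 77 lay above the median of all genes. DESeq2 with the same design called 6 higher, among them RPL8, RPL35, RPS15, RPS26 and RPS29, where it called 8.27% of all genes higher. Leaving out the G library gave 5 edgeR calls (10.1% of all genes) and leaving out GR gave 2 (8.99%). With library totals alone the median was 0.23, beside -0.26 for all genes. With the cell line of the source names as a term it was 0.17, with 63 of 77 positive. That last fit takes R from GR against G alone, since the other R pairs differ in line by source name.

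RPS15, a protein of the small subunit head near the decoding site (ENSG00000115268, chromosome 19, 1438358 to 1440494, plus strand), had the highest fitted value. It stood at 345, 364 and 268 FPKM in R, TR and GR, against 193, 169 and 215 FPKM in T, G and Control. The 3 libraries with R were all above the other 3. Its log2 ratio was 0.75 ± 0.14 (SD, n = 3 pairs), and its fitted log2 fold change was 0.96 (SE 0.21, edgeR adjusted p = 0.0522), just short of the threshold. It was called when the G library was left out (adjusted p = 0.0265), when GR was left out (0.0360) and with median-ratio scaling (0.04999).

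RPS29, a zinc-binding protein of the small subunit (ENSG00000213741, chromosome 14, 49570984 to 49599164, minus strand), had the lowest mean FPKM of the family. It stood at 9.95, 9.96 and 7.91 FPKM in R, TR and GR, against 7.72, 5.49 and 6.25 FPKM in T, G and Control. The groups did not overlap, though GR and T lay close together. The pairs gave 0.46 ± 0.13 (SD, n = 3 pairs), and the fitted log2 fold change was 0.72 (SE 0.21, edgeR adjusted p = 0.0845). RPL41, the shortest protein of the large subunit, stood at 709, 654 and 533 FPKM in R, TR and GR, against 521, 435 and 485 FPKM in T, G and Control, again without overlap.

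Among the stalk genes, whose products recruit the elongation factors, the members split. RPLP1 stood at 344, 314 and 209 FPKM in R, TR and GR, against 213, 198 and 211 FPKM in T, G and Control. R and TR were high and GR lay among the libraries without R (fitted log2 fold change 0.65, SE 0.23, edgeR adjusted p = 0.118, and 0.0481 without the G library). RPLP2, its partner in the stalk, had a fitted value of 0.64, and RPLP0, the base on which both sit, 0.50. RPL12, which lies at the foot of the stalk, had 0.06: it stood at 601, 579 and 365 FPKM in R, TR and GR, against 776, 440 and 496 FPKM in T, G and Control, with T the highest.

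On the peptidyl transferase side of the large subunit, RPL8 had a fitted log2 fold change for R of 0.65 (SE 0.18, edgeR adjusted p = 0.0796), RPL10 one of 0.30 and RPL3 one of -0.04. RPL3, which lies near the catalytic centre, stood at 712, 647 and 446 FPKM in R, TR and GR, against 946, 530 and 675 FPKM in T, G and Control. Its T library was the highest and its GR library the lowest. RPL6 stood at 251, 206 and 232 FPKM in R, TR and GR, against 305, 257 and 265 FPKM in T, G and Control. On the FPKM scale all 3 libraries with R were thus below all 3 without R, though R and G lay close together. How many of all genes had this order was not counted. With TMM-scaled counts RPL6, like all 77 genes, was higher in R than in Control. Its fitted log2 fold change was near 0 (-0.06, SE 0.19, edgeR adjusted p = 0.868). RPL10A, the third of the low members, had 0.01. The ratios of RPL6 to its partners were -0.08, -0.56 and -0.15 in R over Control, TR over T and GR over G.

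The exit tunnel genes, whose products line or surround the path of the nascent chain, were positive for R in 8 of 8, from 0.05 for RPL17 to 0.73 for RPL35, with a median of 0.38. RPL35 stood at 243, 259 and 170 FPKM in R, TR and GR, against 171, 118 and 177 FPKM in T, G and Control, with GR just below T and Control. The 5S particle genes, whose free products bind MDM2, differed: RPL11 had 0.40 and RPL5 had 0.05. RPL5 stood at 412, 350 and 280 FPKM in R, TR and GR, against 438, 329 and 383 FPKM in T, G and Control, with T the highest.

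In the small subunit all 31 genes had a positive fitted value for R. At the mRNA entry RPS2 had 0.52 and RPS3 beside it 0.43. At the mRNA exit RPSA had 0.62, RPS28 0.47, RPS14 0.34 and RPS26 0.83. In the head and at the decoding site RPS16, RPS18 and RPS23 lay between 0.44 and 0.48. Of the beak genes, RPS12 had 0.56, RPS10 0.38 and RPS27A, which is made as a fusion with ubiquitin, 0.31. RPS6, the substrate of S6 kinase downstream of mTOR, was among the lowest of the small subunit at 0.24 and stood at 644, 547 and 443 FPKM in R, TR and GR, against 631, 447 and 510 FPKM in T, G and Control. RPS24 had the lowest value, 0.21.

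RPS26, which contacts the mRNA upstream of the start codon and is mutated in Diamond-Blackfan anaemia (ENSG00000197728, chromosome 12, 56041351 to 56044676, plus strand), stood apart from the family. It stood at 74.5, 57.7 and 42.5 FPKM in R, TR and GR, against 27.9, 34.7 and 50.8 FPKM in T, G and Control. Its T library was the lowest of the 6, while 72 of the 77 genes were higher in T than in Control by FPKM (48 with TMM-scaled counts). Its log2 ratios were 0.55, 1.02 and 0.29 in the 3 R pairs, and -0.84 in T over Control. It was the only member more than 1 log2 unit from the median of the family in a pair. The fitted values were 0.83 for R (SE 0.26, edgeR adjusted p = 0.0913), -0.71 for T (SE 0.31, adjusted p = 1) and -0.94 for G (SE 0.31, adjusted p = 0.381).

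**Figure D3:**
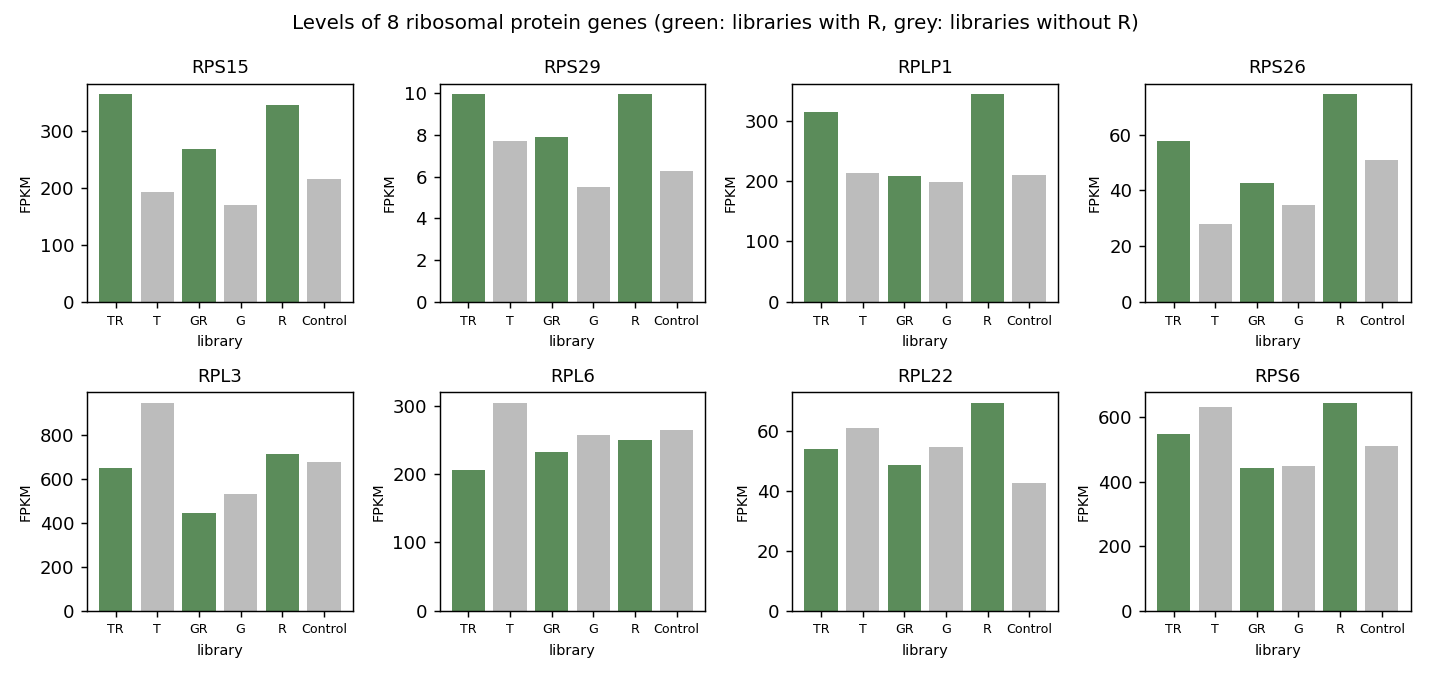
FPKM (vertical axes, from 0) of 8 ribosomal protein genes in the 6 libraries, with libraries holding R in green and those without R in grey; bars are single libraries with no error. RPS15 and RPS29 are above all grey bars in every green bar, RPL6 is below them, RPL3 peaks in T at 946 FPKM, and RPS26 is lowest in T at 27.9 FPKM.

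Across the family, the difference for R ran with base composition. Over the 77 genes the fitted log2 fold change for R and the GC content of the reference transcript had a Spearman correlation of 0.47, as a description over genes that share the same 6 libraries. In single pairs it was 0.002 in R over Control, 0.61 in TR over T and 0.45 in GR over G, and over 12879 genes of all kinds it was 0.03, 0.44 and 0.46. In each pair the family's correlation was thus near that of all genes, except in TR over T, where it was higher; the differences were not tested. The third of the family with the highest GC content had a median ratio of 0.34 in TR over T and the third with the lowest 0.01, while in R over Control these were 0.44 and 0.47. With a trend on GC content and length removed from all genes, the medians of the R pairs were 0.405, 0.0048 and 0.0103, and the correlation turned to -0.47. RPS15 then had 0.59 and RPS26 0.77. Whether GC content has a part in the difference for R was not tested beyond this.

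**Figure D4:**
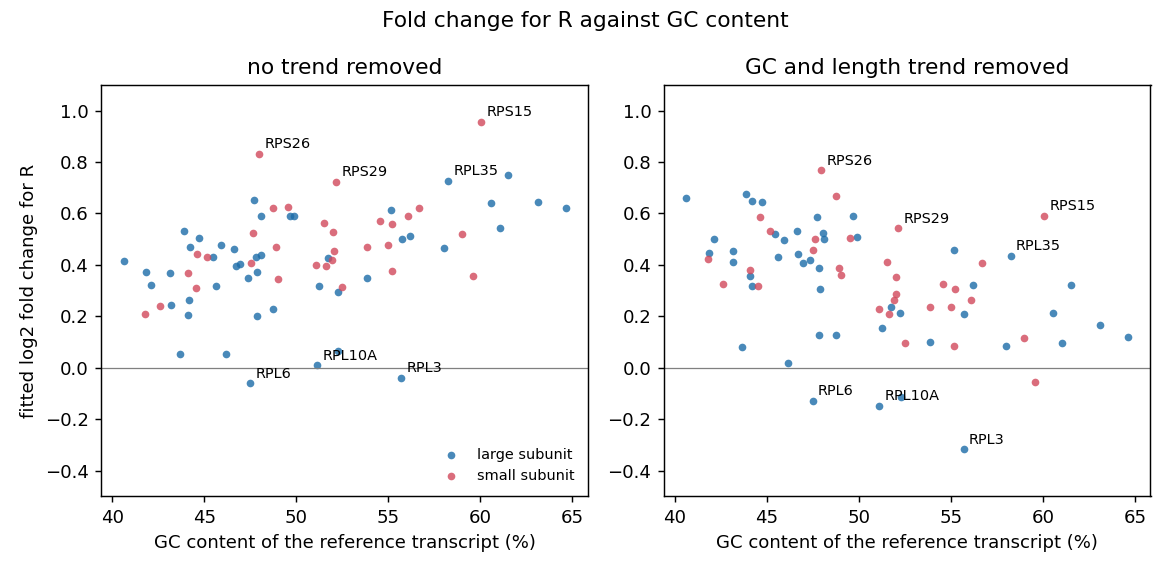
Fitted log2 fold change for R (vertical axis) against the GC content of the reference transcript in percent (horizontal axis) for the 77 genes, large subunit in blue and small subunit in red, as fitted (left) and with a trend on GC content and length removed (right). The slope is upward on the left (Spearman 0.47) and downward on the right (-0.47), and RPL3, RPL6 and RPL10A stay at the bottom in both.

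The comparison of G with no oligo asks what differs with G whether or not R is present. Ribosomal protein genes were lower with G, more so beside R than beside Control. The median log2 ratio was -0.13 in G over Control and -0.51 in GR over R, where all genes had 0.08 and 0.22, so that relative to all genes the family stood at -0.21 and -0.73. The mean of the medians was -0.32 ± 0.27 (SD, n = 2 pairs). Lower were 58 of the 77 genes in G over Control and 77 of 77 in GR over R, where 58.3% and 67.4% of all genes were higher. At least 1.5-fold lower were 1 gene, RPL35, in G over Control (3.76% of all genes) and 19 genes in GR over R (4.17%). Lower in both pairs were 58 genes, where 18.8% of all genes were, and for 37 genes both libraries with G lay below the other 4, where 4.36% of all genes did.

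No ribosomal protein gene passed the test for G either. The edgeR model called 0 of 77, where 0.0335% of all genes were called. In it 38 of 77 had an unadjusted p under 0.05, against 11.9% of all genes. DESeq2 called 0 of 77 (2.07% of the 19983 genes with an adjusted p). In it 41 had an unadjusted p under 0.05, against 3118 of all 33706 genes (9.25%). Those 33706 include genes without an adjusted p, so this share is not comparable with the 11.9% of edgeR. The edgeR count of 38 was 3 without GR (5.27% of all genes) and 6 without R (9.05%), and at most 56, without T. Without T, 12.5% of all genes had an unadjusted p under 0.05. All 77 fitted log2 fold changes were negative, from -0.94 to -0.36, with a median of -0.58 beside 0.09 for all genes. The smallest adjusted p was 0.282, for RPS2. The direction was negative for all 77 with TMM scaling, with library totals alone and with a trend on GC content and length removed. It was also negative for all 77 with the cell line of the source names as a term. In that fit GR is the only library that sets the value for G, so it is not a separate check of direction.

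RPS2, which lies at the mRNA entry and had the highest mean FPKM of the family (ENSG00000140988, chromosome 16, 1962058 to 1964826, minus strand), stood at 1342 FPKM in GR and 1171 FPKM in G, against 2224, 2270, 1844 and 1617 FPKM in R, TR, T and Control. Both G libraries were below the other 4 (fitted log2 fold change -0.88, SE 0.22, edgeR adjusted p = 0.282). RPL10, which joins the large subunit late in its assembly and lies near the catalytic centre, stood at 178 FPKM in GR and 169 FPKM in G, against 283, 278, 277 and 247 FPKM in R, TR, T and Control (-0.89, SE 0.23, edgeR adjusted p = 0.299). RPL24 and RPL35 had -0.83 each, and RPS23 at the decoding site -0.76. The role groups differed little: their medians for G ran from -0.56 for the exit tunnel to -0.80 for the peptidyl transferase side.

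The values nearest 0 for G were those of RPL6 (-0.36), RPL22 (-0.38) and RPL13A (-0.38) in the large subunit. In the small subunit RPS24 (-0.38) and RPS4X (-0.44) were among those nearest 0. RPL22 stood at 48.5 FPKM in GR and 54.7 FPKM in G, against 69.5, 54.0, 60.9 and 42.5 FPKM in R, TR, T and Control. It was higher in G than in Control (0.35) and lower in GR than in R (-0.51), and its fitted value turned to 0.08 when the R library was left out.

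The comparison of T with no oligo gave opposite directions in its 2 backgrounds. The family was higher in T than in Control, with 72 of 77 genes higher and a median log2 ratio of 0.22, and lower in TR than in R, with 58 of 77 lower and a median of -0.08. All genes had 0.07 and 0.06. In T over Control 2 genes, RPL37 and RPL12, passed 1.5-fold upward (11.5% of all genes) and 1, RPS26, passed it downward (8.02%). No gene passed 1.5-fold in TR over R, where 3.62% of all genes were higher and 2.23% lower by that much. These values are on the FPKM scale, where 56.4% and 58.8% of all genes were higher in the 2 pairs. With TMM-scaled counts 48 of 77 were higher in T than in Control (median 0.05, all genes -0.06). On that scale 69 of 77 were lower in TR than in R (median -0.15, all genes 0.02). The edgeR model called 0 of 77 for T (0.00478% of all genes), with 1 gene, RPS26, at an unadjusted p under 0.05 (3.67% of all genes), and DESeq2 called no member (0.129% of all genes). The mean of the 2 medians was 0.07 ± 0.21 (SD, n = 2 pairs), and it turned to -0.05 with TMM scaling of counts, so it has no settled direction.

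RPL37, a large subunit protein, had the highest fitted value for T, 0.24, and stood at 54.7 FPKM in TR and 75.1 FPKM in T, against 46.1, 44.5, 59.5 and 41.2 FPKM in GR, G, R and Control. T was the highest, R and TR came next, and Control was the lowest. RPL12 had 0.16 and RPL28 0.09, while RPL24, RPL38 and RPLP1 lay between -0.19 and -0.18. In the small subunit RPS10, RPS29 and RPS3 lay between 0.03 and 0.04, RPS15 and RPS20 at -0.15, and RPS26 at -0.71.

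Genes outside the name rule were read beside the family from fixed lists. Among all genes, 27.2% had an unadjusted edgeR p under 0.05 for R and 11.9% for G. DESeq2 called 1706 genes higher and 1958 lower for R, of 20636. For G it called 326 higher and 87 lower, of 19983. FAU, whose product is RPS30 fused to a ubiquitin-like protein, had a fitted log2 fold change of 0.69 for R and -0.62 for G, and RACK1, a scaffold on the small subunit, had 0.44 and -0.45. edgeR called neither, while DESeq2 called FAU higher for R.

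The 14 translation factors and other genes known for TOP mRNAs were positive for R in 11 of 14 (median 0.24) and negative for G in 14 of 14 (median -0.47). edgeR called 0 of them, with 5 at an unadjusted p under 0.05 for R and 4 for G, while DESeq2 called EEF1B2 and EEF1D higher for R and none for G. The subunits of elongation factor 1 stood at the top for R, with 0.68 for EEF1B2, 0.65 for EEF1D and 0.57 for EEF1G, while the initiation factor genes EIF3E and EIF4B had -0.21 and -0.15. EEF2, the translocase, had 0.43 for R and -0.56 for G. Within the family, the 46 genes with a TOP start had a median of 0.44 for R and -0.58 for G, and the 16 without one at an annotated start had 0.36 and -0.60. Genes with and without the start, as annotated, thus had similar medians, though a start mapped a few bases away would move some genes between these groups.

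Genes that build ribosomes had medians below 0 for R, where the family's was above 0; the difference was not tested. Of 24 ribosome biogenesis genes 7 were positive for R (median -0.15), where 47.0% of all genes were. In edgeR 1 of the 24 passed the test, a share near the 2.5% of all genes: NOP58, a core protein of the box C/D particles that methylate ribosomal RNA, fell by 1.16 on the log2 scale (SE 0.23, edgeR adjusted p = 0.0463). It stood at 9.67, 8.58 and 16.4 FPKM in R, TR and GR, against 30.3, 31.5 and 24.1 FPKM in T, G and Control. It was not called without Control (adjusted p = 0.0976), R (0.0717), T (0.178) or TR (0.178), without a filter on low counts (0.208), with the trend on GC content and length removed (0.0538) or with the cell line of the source names as a term (1). DESeq2 called 3 of the 24 lower, NOP58, RRS1 and UTP15, where it called 1958 of 20636 genes lower. NOP56, the partner of NOP58, had -0.64, RRS1 -0.95 and FBL, the methyltransferase of the same particles, 0.37, none of them called by edgeR. Of 11 RNA polymerase I genes 2 were positive for R (median -0.34). edgeR called 0, with 3 at an unadjusted p under 0.05, and DESeq2 called 1, POLR1B, lower. For G the biogenesis list had a median of -0.21 with 16 of 24 negative, and the polymerase I list 0.002 with 5 of 11 negative.

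The 7 paralogs tested, copies that replace a family member in some tissues, went both ways. RPL39L, RPS27L and RPL26L1 had fitted values for R between 0.63 and 0.73, RPL36AL and RPL3L were near 0, and RPL7L1 and RPL22L1 had -0.71 and -0.69. edgeR called 0 of 7 for R (5 at an unadjusted p under 0.05) and 0 for G (3), while DESeq2 called RPS27L higher for R, and RPL22L1 and RPL26L1 lower for G. RPL22L1, the paralog of RPL22, stood at 59.5, 47.7 and 18.1 FPKM in R, TR and GR, against 120, 43.2 and 62.7 FPKM in T, G and Control. It was lowest in GR and highest in T. RPL3L did not exceed 0.129 FPKM. The 78 nuclear genes of mitochondrial ribosomal proteins had a median of 0.29 for R with 54 positive and 24 negative, and of -0.46 for G with 74 negative. edgeR called 0 of 78 for R, with 26 at an unadjusted p under 0.05 (27.2% of all genes). It called 0 for G, with 15 under it (11.9%). DESeq2 called 15 higher for R, where it called 8.27% of all genes higher. It called 1 lower for R and 1 lower for G, where it called 1958 of 20636 and 87 of 19983 genes lower.

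**Figure D5:**
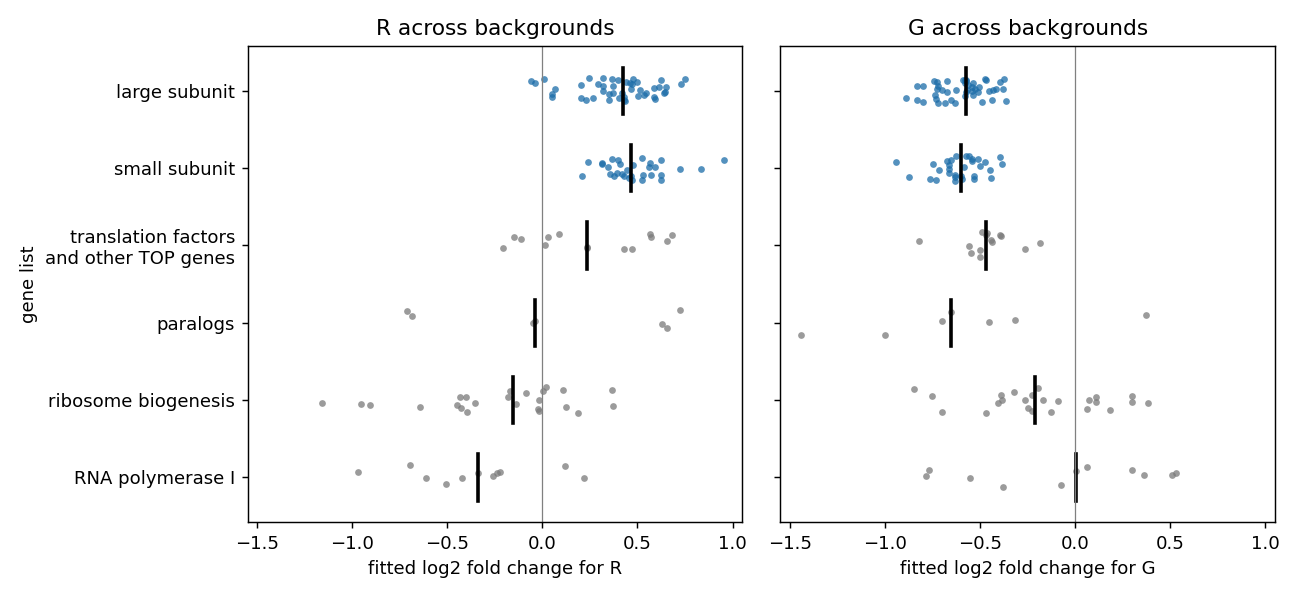
Fitted log2 fold change (horizontal axes) for R (left) and G (right) of each gene in 6 lists, with the cytosolic ribosomal proteins in blue, other lists in grey and medians as black bars. For R the medians run from 0.47 for the small subunit to -0.34 for RNA polymerase I genes, and for G both subunits lie wholly below 0.

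The level of single members differed over a wide range on the FPKM scale. RPS2, RPS12 and RPL8 had the highest mean FPKM over the 6 libraries, at 1745, 1115 and 1070, and RPS29, RPL38 and RPL36A the lowest, at 7.88, 27.1 and 29.5. These levels depend on the length by which the authors divided. The length that the deposited counts and FPKM imply exceeded that of the principal GENCODE v29 transcript by a median of 2.67-fold for the 77 genes, against 1.58-fold for all genes, and for RPS29 it was 10464 bases against 677 in the reference. Levels of different members are therefore not comparable as copies of mRNA, while plain FPKM ratios of 1 gene between libraries do not depend on that length. The log2 ratios given here add 1 to FPKM, which shrinks them for members at low FPKM, RPS29 most.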

How the data were processed

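Poly(A)-selected RNA of 6 ES2 cultures was sequenced as paired reads, per the labels' protocols, which name a HiSeq instrument in one place and a NovaSeq in another, with the same text for every library. The deposited table holds a count per gene and library, used as deposited, and the authors' FPKM, per the file headers. StringTie 2.1.6, HISAT2 2.2.1, cutadapt 1.9, edgeR and DESeq2 appear, with no role stated, in the submitters' processing notes. Build and annotation, and how reads shared with pseudogenes, paralogs and overlapping genes were handled, are not given in the sources used. GENCODE v29 holds 92.6% of the gene identifiers and gave lengths and GC content, and all 77 members overlap their GENCODE gene. Ratios of the authors' FPKM between libraries equalled those of counts scaled by 1 constant per library, within 0.00049 log2 for members.

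Counts of all 20922 genes passing filterByExpr were fitted with an additive model of R, T and G in edgeR 4.0.16 (quasi-likelihood, TMM scaling, Benjamini-Hochberg, threshold 0.05) in R 4.3.3, with 2 residual degrees of freedom. DESeq2 1.42.0 was an alternative. The p-values reflect the spread among these 6 libraries alone, which may be technical. Pairs were compared by log2 ratio of FPKM + 1, with no test, which understates changes of low genes, among 13259 genes with at least 1 FPKM in a library. Counts of any 2 libraries differed by more than sampling noise (chi-square per degree of freedom at least 103.1). No molecular identifiers were used, so intervals cover counting error only. The edgeR step was tested on simulated data.

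Named genes are the 3 highest and 3 lowest fitted values of each subunit for R, T and G, the 3 highest and lowest by mean FPKM, members more than 1 log2 unit from the family's median in a pair, and fixed role lists. RPL21, RPL37 and RPL7 were also named from their values, as were the members in counts of 9 or fewer. Some genes that the rule names are not reported here. Members and lists were chosen with earlier results of these data known. Alternatives covered scaling, filter, tool, pseudocount, trend, cell line and leaving out each library or pair.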

Additional observations from a re-analysis of the deposited data

Results flagged for a closer look

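For 4 members the ratios of the same agent ran in opposite directions in 2 backgrounds, each by at least 0.322 on the log2 scale; with 1 library a group, the difference between the ratios was not tested. For R, RPL37 had a log2 ratio of 0.52 in R over Control and -0.45 in TR over T, which are 0.97 apart, and RPL21 had 0.44 and -0.40, which are 0.84 apart. For T, RPL22 had 0.51 in T over Control and -0.36 in TR over R (0.87 apart), RPL21 had 0.43 and -0.41 (0.84 apart) and RPL7 had 0.37 and -0.40 (0.77 apart). For G, RPL22 had 0.35 in G over Control and -0.51 in GR over R (0.86 apart). These ratios are of FPKM + 1. With TMM-scaled counts the lowest member ratio was -0.24 in TR over T, and the highest was 0.15 in G over Control. The flags for R and for G thus did not reach the limit of 0.322 on that scale. The 2 values for RPL21 compare the same 4 libraries and are 1 result. RPL7 and RPL21 have many processed pseudogenes, and how the authors divided reads shared with them was not stated.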

How the results depend on the processing

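Of the comparisons' values and counts under alternatives, 68 stayed within their limits and 8 moved. The count of members called for R was 0, against 6 with DESeq2 and 1 with median-ratio scaling, and ran from 0 to 5 when single libraries were left out (5 without G, 2 without GR). The mean of the R pair medians was 0.44 with TMM-scaled CPM and 0.46 with median-ratio scaling, against 0.24, and that of the G pairs -0.61 and -0.63, against -0.32. These scalings moved the mean of the all-gene medians for R to 0.05 and 0.06, against -0.10; relative to all genes the family stood at 0.40 with either, against 0.34.

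Among fitted values of single members, 397 kept direction and side of the threshold, 9 passed it only under an alternative and 26 reversed; the cause was not tested. For R, RPL10A turned to -0.15 with the trend removed, -0.19 with library totals and -0.27 with the cell line as a term, which also turned RPS24 to -0.14 and RPS27A to -0.0044. When single libraries were left out, the fitted values for R ran from -0.14 to 0.15 for RPL10A, from -0.20 to 0.057 for RPL3 and from -0.15 to 0.032 for RPL6, and those for G from -0.82 to 0.081 for RPL22. For T they ran from -0.14 to 0.49 for RPL12, -0.083 to 0.28 for RPL28, -0.12 to 0.62 for RPL37, -0.37 to 0.028 for RPLP1, -0.055 to 0.11 for RPS10, -0.38 to 0.047 for RPS15, -0.084 to 0.14 for RPS29 and -0.12 to 0.17 for RPS3.

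No paired analysis was possible because each group holds 1 library, so groups share fewer than 2 replicate numbers; the pairs and the additive model match libraries by agent instead. Library depth limits little here, since the lowest count of a member in a library was 4471; the single library per group and 2 residual degrees of freedom limit every test.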

Other observations

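Genes that control ribosomal protein mRNAs were read in the same fit. Of 9 such genes 4 had a positive fitted log2 fold change for R. edgeR called 0, with 4 at an unadjusted p under 0.05 (27.2% of all genes). DESeq2 called MYC and RPS6KB2 higher, where it called 8.27% of all genes higher. MYC, a transcription factor that drives ribosome genes, stood at 94.6, 107 and 54.2 FPKM in R, TR and GR, against 62.5, 47.5 and 59.9 FPKM in T, G and Control (0.75 for R, SE 0.23, edgeR adjusted p = 0.0952), with GR among the libraries without R. RPS6KB2, an S6 kinase, had 0.84 and RPS6KB1, the other S6 kinase, -0.62. MTOR, RPTOR and LARP1 lay between -0.20 and 0.00.

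Ribosomal protein pseudogenes named by symbol numbered 613, of which 133 had at least 1 FPKM in a library. They took 0.284, 0.274 and 0.202% of counts in R, TR and GR, against 0.251, 0.188 and 0.214% in T, G and Control, the same order of libraries as the parent genes. Their median log2 ratio was 0.30 in R over Control and -0.33 in GR over R, against 0.47 and -0.51 for the parent genes.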
